A study of Mus musculus with 8 samples.

Results

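The genes described here encode the enzymes and carriers with which mitochondria take up and oxidise fatty acids and other acyl-CoAs. The 34 genes were listed by their function and no measured value entered the rule. They were, however, chosen with earlier results of these data known. Entries under their own Ensembl identifier existed for 32 of them, of 13081 genes with a value in all. Levels came from RNA sequencing of crypt organoids of the small intestine. These are epithelial cultures, kept here in Matrigel with IntestiCult medium, that hold crypt and villus cell types together. The organoids were derived from 4 MG53-TG samples and 4 WT samples, the latter from littermates without the transgene. The study's text also describes a transcriptome of crypt organoids from MG53-TG mice crossed with an Lgr5 knock-in line. The samples are labelled only WT and MG53-TG, so whether they carry the knock-in is not given. MG53-TG mice overexpress MG53 (mitsugumin 53, an E3 ubiquitin ligase of the TRIM family encoded by Trim72) in the whole body, and no treatment is listed for either group. The promoter of the transgene and the age of the animals that gave these organoids are not given in the sources used here. The labels do not say whether each sample came from a separate mouse, so the p-values measure the spread between samples, which may be partly technical.

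A fatty acid enters the mitochondrial matrix as acylcarnitine, made on the outer membrane by a carnitine palmitoyltransferase, carried across the inner membrane by a translocase and turned back into acyl-CoA inside. Each round of beta-oxidation then removes a unit of acetyl-CoA in a cycle of dehydrogenation, hydration, a further dehydrogenation and thiolysis. The first dehydrogenation is done by flavin enzymes that differ in the chain length they accept, and its electrons pass through the electron transfer flavoprotein to ubiquinone. Odd-numbered chains and some amino acids leave propionyl-CoA, which a separate route turns into succinyl-CoA. In the small intestine, absorptive enterocytes take up dietary fatty acids, and genes of this pathway are known targets of the nuclear receptor PPAR alpha.

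The values are FPKM, fragment numbers scaled to the depth of the sample and to transcript length, and a gene's value is the sum over its transcription start events, or over its end events where that mean was higher. Log2 fold changes are of MG53-TG over WT on the log2(FPKM + 1) scale, which understates the change of low genes. The summed FPKM of all start events lay between 269837 and 273797 in WT and between 269094 and 284330 in MG53-TG samples. Trim72 was absent from the 4 WT tables and lay between 16.4 and 36.5 FPKM in the MG53-TG samples.

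Of the 32 members tested, 19 were higher in MG53-TG organoids (adjusted p at most 0.05, limma) against 15.5% of all genes, which makes 59.4% of the members, and 0 were lower against 29.2% of all genes. No member was lower at an unadjusted p under 0.05 either. The median log2 fold change of the members was 0.67, beside -0.17 over the 10271 genes tested. In all 19 genes called, every MG53-TG sample lay above every WT sample, a separation that 15.7% of all genes showed, while 29.1% of all genes had every MG53-TG sample below every WT sample, as did 0 members. Over both directions 44.7% of all genes were called. The mean levels of the 19 members rose between 1.31-fold and 5.64-fold, with a median of 2.07-fold. The other 13 had log2 fold changes between -0.14 and 0.69, of which 8 were above 0 and 5 below. For each separated gene the two-sided exact permutation test over the 70 relabellings gave p = 0.0286, the smallest that 4 against 4 samples allow. Summed over the 32 members, the level was 960.2 ± 21.6 FPKM in WT (SD, n = 4) and 1829 ± 257 FPKM in MG53-TG (SD, n = 4).

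Levels of cell type markers also differed between the groups, where 15.5% of all genes were higher and 29.2% lower. All 14 enterocyte markers tested were higher in MG53-TG, with a median log2 fold change of 2.66, and their summed level lay between 1129 and 1309 FPKM in WT and between 12302 and 13622 FPKM in MG53-TG. Of 8 stem cell markers 5 were lower, and their sum fell from a range of 522 to 705 FPKM to one of 69.5 to 321 FPKM. The part of this shift in the results below was not tested, and in these bulk samples more cells of a type cannot be told apart from more RNA per cell. Mesenchyme and muscle markers, which could stand for carried-over tissue, summed to between 2.21 and 3.68 FPKM in WT and between 1.31 and 5.17 FPKM in MG53-TG, and Acta1, Acta2, Myh11 and Pdgfra had no value in any sample.

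The 4 MG53-TG samples also differed among themselves. The stem cell marker Olfm4 was at 50.1, 57.7, 6.07 and 0.948 FPKM in MG53-TG 1 to 4, and sucrase-isomaltase, Sis, a brush-border enzyme of enterocytes, was at 561, 631, 1033 and 1111 FPKM. MG53-TG 3 and 4 were thus lower in the first and higher in the second. Both of these samples lay above MG53-TG 1 and 2 in 15 of the 32 members tested and below them in 7, beside 19.4% above and 41.4% below among all genes tested. The split of MG53-TG 1 and 2 from MG53-TG 3 and 4 was chosen after the data had been seen. Against the 4 WT samples, 17 members were higher with MG53-TG 1 and 2 alone and 23 with MG53-TG 3 and 4 alone. In the latter fit 2 were also lower, Acadsb and Pcca. The median log2 fold changes of the members were 0.41 and 0.74, beside -0.10 and -0.26 over all genes. Higher calls made up 37.5% and 29.9% of all calls in these fits, beside 34.6% with all samples. With all samples, 15.5% of all genes were called higher and 29.2% lower. Cpt2, Acadm and Acad12 were not called from MG53-TG 1 and 2 alone (adjusted p = 0.0687, 0.0615 and 0.0617 by limma). Acad10, Echs1 and Etfa were called higher from MG53-TG 3 and 4 alone (adjusted p = 0.0035, 0.0304 and 0.0051 by limma). Eci1 was also called higher from MG53-TG 3 and 4 alone, with its value given under its step. The labels give no reason for this split, and its part in the results was not tested.

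**Figure D1:**
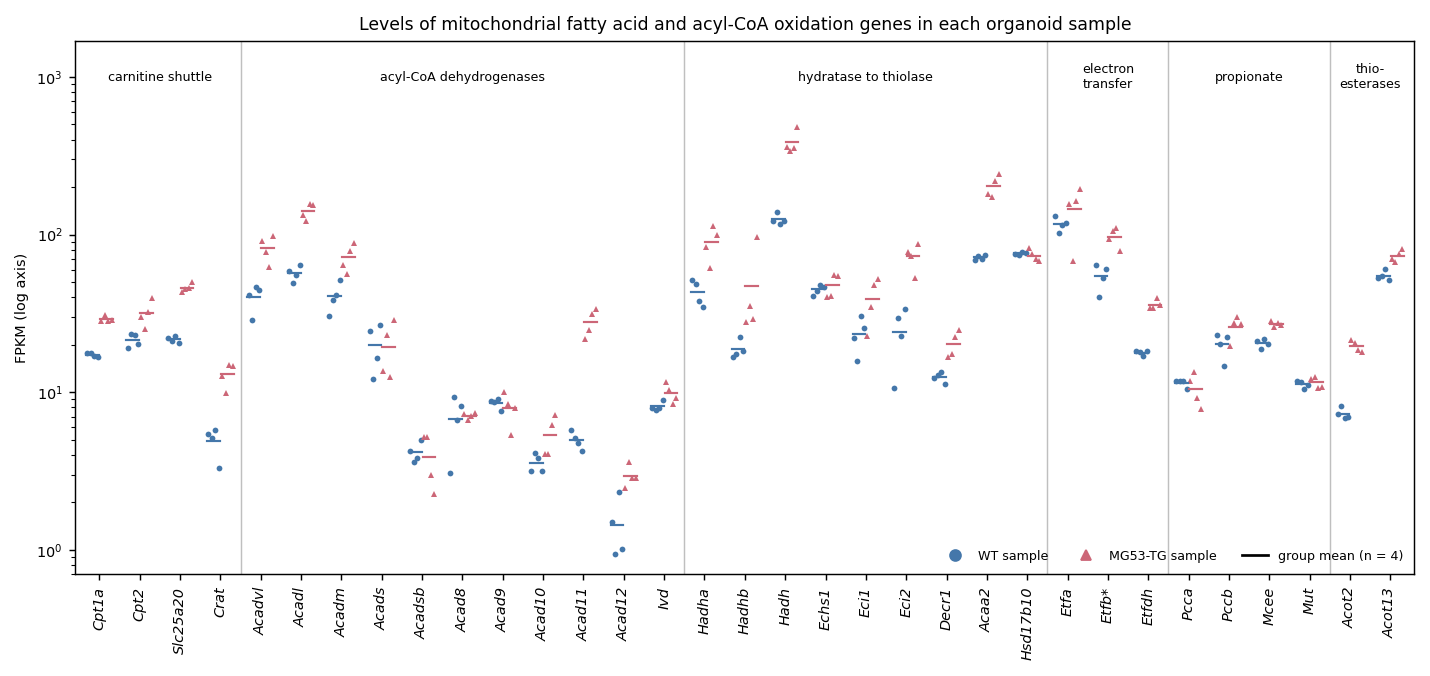
FPKM on a log axis for each of the 8 samples, by gene and step, with circles for WT, triangles for MG53-TG and bars for the group means (n = 4); Etfb, with an asterisk, was placed by exon coordinates and Cpt1b is not drawn. The genes of the carnitine shuttle and most of the hydratase to thiolase step show WT and MG53-TG samples apart, while Acads, Echs1, Hsd17b10, Pcca and Mut show them overlapping.

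Promoter sequences are shown for 4 of the 5 genes whose windows held a nuclear receptor half-site, for the 3 genes that held a palindrome known from genes of mitochondrial function, and for the gene pair that starts from 1 shared region. RefSeq promoters on GRCm38.p6 were matched for 27 of the 34 members, giving 28 windows from 250 bases before to 50 bases after the annotated start. The hexamer AGGTCA, the half-site read by many nuclear receptors, stood in 6 of the 28 windows on either strand, or 21.4% (5 genes, Pcca with 2 windows), beside 16.3% of all 32851 promoters. The full direct repeat AGGTCANAGGTCA, to which PPAR and RXR pairs bind, was found in 0 of the 28 and in 0.0396% of all promoters, which says only that these letters are not in these windows. The extended half-site TCAAGGTCA was likewise found in 0 of the 28, beside 0.423% of all promoters. The letters of AGGTCA are contained in both longer motifs. The first 4 sequences below run 5′ to 3′ on the gene's own strand from 250 bases before the start, with AGGTCA or its reverse complement in capitals. Cpt1a, Acadvl and Acadm were higher in MG53-TG, and Echs1 and the fifth gene with the hexamer, Pcca, were not called. Pcca is not printed, since 1 of its hexamers lies after the annotated start and the other in a window 49959 bases from its main start event. The windows are Cpt1a at chr19:3323051-3323320 (plus strand), Acadvl at chr11:70015409-70015678, Acadm at chr3:153944624-153944893 and Echs1 at chr7:140116402-140116671 (all minus strand).
Cpt1a: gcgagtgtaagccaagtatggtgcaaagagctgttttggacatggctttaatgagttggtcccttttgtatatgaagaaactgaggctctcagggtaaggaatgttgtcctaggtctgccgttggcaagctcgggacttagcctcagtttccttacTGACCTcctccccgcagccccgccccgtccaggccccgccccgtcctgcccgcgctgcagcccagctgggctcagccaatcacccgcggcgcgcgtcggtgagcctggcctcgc
Acadvl: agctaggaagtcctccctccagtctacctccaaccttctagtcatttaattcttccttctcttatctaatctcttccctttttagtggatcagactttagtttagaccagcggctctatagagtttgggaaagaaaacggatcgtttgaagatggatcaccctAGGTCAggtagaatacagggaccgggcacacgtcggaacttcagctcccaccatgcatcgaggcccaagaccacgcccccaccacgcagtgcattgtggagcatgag
Acadm: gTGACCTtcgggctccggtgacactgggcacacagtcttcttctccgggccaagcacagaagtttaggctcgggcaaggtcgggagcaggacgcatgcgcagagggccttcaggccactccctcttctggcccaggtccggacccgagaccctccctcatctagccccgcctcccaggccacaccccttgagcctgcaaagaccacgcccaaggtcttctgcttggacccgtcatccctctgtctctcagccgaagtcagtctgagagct
Echs1: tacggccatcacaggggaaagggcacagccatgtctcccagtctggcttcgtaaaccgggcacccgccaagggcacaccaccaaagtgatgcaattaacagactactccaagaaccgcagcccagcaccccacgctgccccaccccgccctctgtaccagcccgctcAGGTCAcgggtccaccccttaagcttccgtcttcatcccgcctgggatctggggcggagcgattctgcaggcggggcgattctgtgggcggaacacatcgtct

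The palindrome GCGCATGCGC, known as the element of the nuclear respiratory factor NRF1, stood in 3 of the 28 windows, or 10.7%, beside 0.971% of all promoters. The 3 genes were Etfdh, Acad12 and Acad10, of which the first 2 were higher in MG53-TG. It began 128 bases before the annotated start of Etfdh, 44 before that of Acad12 and 8 before that of Acad10. Acad12 and Acad10 are neighbours on the minus strand of chromosome 5 with 2087 bases between them. Their windows share long near-identical stretches around the palindrome. These 2 windows are therefore not independent, and the 10.7% counts them separately. The windows below are Etfdh at chr3:79628748-79629017, Acad12 at chr5:121618919-121619188 and Acad10 at chr5:121660491-121660760 (all minus strand), with the palindrome in capitals.
Etfdh: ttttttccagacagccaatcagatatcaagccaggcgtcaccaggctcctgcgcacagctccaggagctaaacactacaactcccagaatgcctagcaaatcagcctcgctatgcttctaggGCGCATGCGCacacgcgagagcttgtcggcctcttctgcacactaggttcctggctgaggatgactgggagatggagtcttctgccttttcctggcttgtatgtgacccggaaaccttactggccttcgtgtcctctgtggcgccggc
Acad12: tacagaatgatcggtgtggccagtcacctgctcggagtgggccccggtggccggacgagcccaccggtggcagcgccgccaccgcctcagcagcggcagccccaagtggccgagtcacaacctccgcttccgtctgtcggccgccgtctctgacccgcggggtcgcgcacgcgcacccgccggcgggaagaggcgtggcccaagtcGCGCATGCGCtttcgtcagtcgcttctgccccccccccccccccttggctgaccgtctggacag
Acad10: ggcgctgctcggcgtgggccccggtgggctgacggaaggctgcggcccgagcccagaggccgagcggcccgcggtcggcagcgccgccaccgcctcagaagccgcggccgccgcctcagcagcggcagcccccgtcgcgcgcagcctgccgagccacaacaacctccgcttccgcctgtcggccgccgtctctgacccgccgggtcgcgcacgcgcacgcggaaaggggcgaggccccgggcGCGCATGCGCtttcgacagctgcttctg

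Hadha and Hadhb, which encode both subunits of the mitochondrial trifunctional protein, are read away from each other from a common region of chromosome 5. The genes as annotated by GENCODE lie 85 bases apart, their main start events 285 bases apart, and their RefSeq promoter windows share 228 bases. The stretch below is the plus strand at chr5:30155003-30155272, with the first 20 bases from the RefSeq start of Hadhb on in capitals. It holds the shared bases, while the RefSeq start and the main start event of Hadha lie outside it. The median GC content of the 28 member windows was 59.5%, beside 52.7% for all promoters, none of the 28 held the letters TATAAA (13.6% of all) and 14 held CCAAT (50% of the 28, 37.4% of all).
Hadhb: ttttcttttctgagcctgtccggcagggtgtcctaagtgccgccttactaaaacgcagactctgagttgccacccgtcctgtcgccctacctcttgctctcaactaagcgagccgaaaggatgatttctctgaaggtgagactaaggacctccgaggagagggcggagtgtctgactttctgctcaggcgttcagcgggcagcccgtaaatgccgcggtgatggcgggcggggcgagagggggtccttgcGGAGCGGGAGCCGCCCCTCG

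The carnitine shuttle rose in full where it was measured, with 4 of 4 tested genes higher and a median log2 fold change of 0.89. Slc25a20, the carnitine-acylcarnitine translocase of the inner membrane (chr9:108662088-108684641), was at 22.0, 21.1, 22.9 and 20.6 FPKM in the WT samples and at 43.5, 45.0, 45.7 and 50.3 FPKM in the MG53-TG samples. The groups were far apart and narrow, and the log2 fold change was 1.06 (SE 0.09, adjusted p = 3.34e-05). Crat, the carnitine acetyltransferase that exchanges acetyl groups between carnitine and CoA, was at 5.40, 5.10, 5.77 and 3.32 FPKM in WT and at 12.7, 9.89, 15.0 and 14.7 FPKM in MG53-TG. This was the largest change of the step, with a log2 fold change of 1.26 (SE 0.18, adjusted p = 0.000792), but from its highest single event it was 0.75 and not called (adjusted p = 0.266). Another start event than in the other samples carried most of the Crat level in MG53-TG 1.

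Cpt1a, the outer membrane carnitine palmitoyltransferase that sets the rate of entry, was at 17.6, 17.7, 16.9 and 16.8 FPKM in WT and at 28.2, 30.8, 28.4 and 28.6 FPKM in MG53-TG. Its values were tight in both groups, with MG53-TG 2 a little above the other 3, and the log2 fold change was 0.72 (SE 0.08, adjusted p = 0.000205). Cpt2, the inner membrane transferase that remakes acyl-CoA, rose from 21.4 ± 2.09 to 31.8 ± 6.17 FPKM (mean ± SD, n = 4 per group), with a log2 fold change of 0.53 (SE 0.14, adjusted p = 0.0164). Cpt1b, the muscle form of the outer enzyme, had no entry under its own identifier. A single start event on its exons was listed under the neighbouring gene Chkb, at 0.148 FPKM in WT 1 and absent from the other 7 samples, so Cpt1b was not tested.

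**Figure D2:**
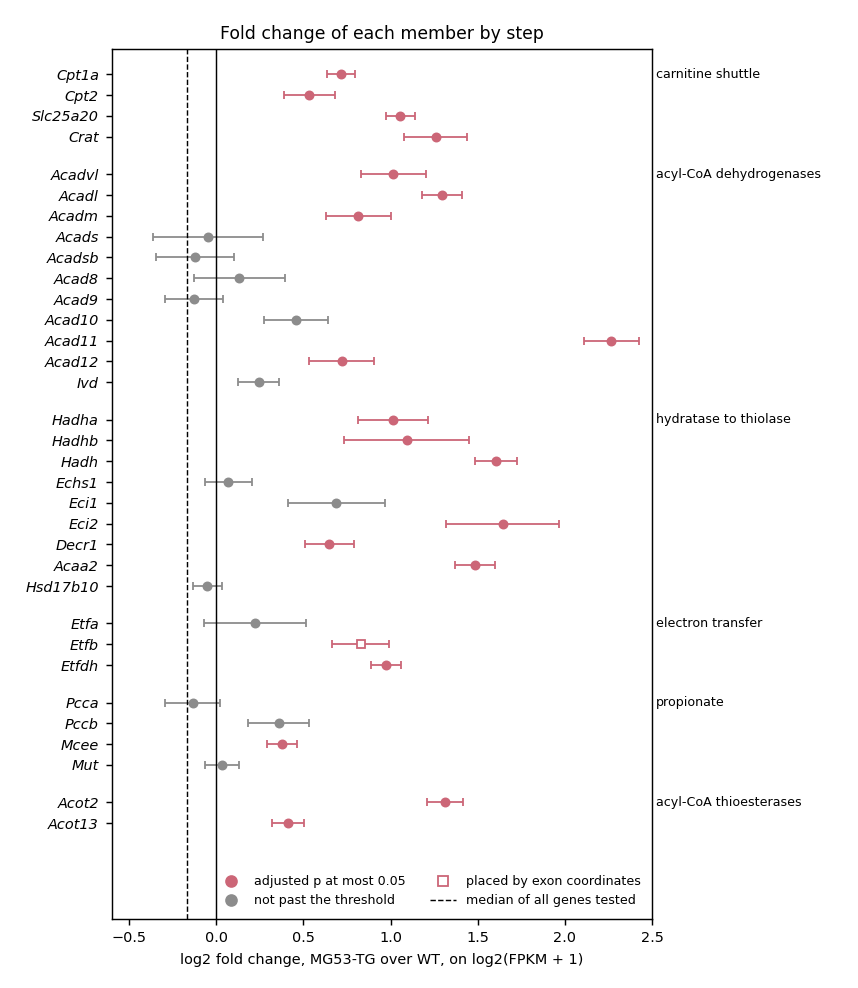
Log2 fold change of MG53-TG over WT on log2(FPKM + 1) for each member by step, with bars for the standard error from limma, red for adjusted p at most 0.05 and grey for the rest; the dashed line is the median of all genes tested, at -0.17. The points run from -0.14 for Pcca to 2.27 for Acad11, and every red point lies to the right of 0.

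Among the acyl-CoA dehydrogenases, 5 of 11 were higher and 6 were not called. The very long-, long- and medium-chain enzymes rose, whereas the short-chain enzyme and those of branched-chain amino acids did not pass the test; the difference between their changes was not tested. Acadl, the long-chain enzyme, was at 58.8, 49.5, 55.7 and 64.1 FPKM in WT and at 134, 122, 157 and 153 FPKM in MG53-TG. The lowest MG53-TG sample was well above the highest WT sample, and the log2 fold change was 1.29 (SE 0.11, adjusted p = 5.29e-05). Acadvl, for very long chains, rose from 40.2 ± 8.04 to 82.2 ± 15.8 FPKM (mean ± SD, n = 4 per group), with a log2 fold change of 1.02 (SE 0.19, adjusted p = 0.00279). Acadm, the medium-chain enzyme, rose from 40.5 ± 8.91 to 71.9 ± 14.1 FPKM (mean ± SD, n = 4 per group), with a log2 fold change of 0.82 (SE 0.19, adjusted p = 0.00781).

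Acads, the short-chain enzyme, lay between 12.1 and 26.5 FPKM in WT and between 12.4 and 28.6 FPKM in MG53-TG, so the groups spanned the same range, with a log2 fold change of -0.05 (SE 0.32, adjusted p = 0.916). Acadsb, which acts on short branched chains from isoleucine, had group means of 4.15 and 3.90 FPKM and a log2 fold change of -0.12 (SE 0.22). The log2 fold changes of Acads and Acadsb, both within their errors, turned to positive values when samples were rescaled by the median of ratios or by quantiles. Acad8, the isobutyryl-CoA dehydrogenase of valine breakdown, had means of 6.80 and 7.08 FPKM. Ivd, the isovaleryl-CoA dehydrogenase of leucine breakdown, lay between 7.72 and 8.92 FPKM in WT and between 8.41 and 11.7 FPKM in MG53-TG, with a log2 fold change of 0.24 (adjusted p = 0.127) that passed the threshold under both rescalings.

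Within each sample, the summed level of Acadvl, Acadl and Acadm was 3.28 to 4.10 times that of Acads, Acadsb, Acad8 and Ivd in WT and 5.64 to 9.67 times in MG53-TG. The first sum ran from 117 to 161 FPKM in WT and from 256 to 339 FPKM in MG53-TG. The second ran from 32.8 to 48.5 FPKM and from 30.8 to 47.3 FPKM. This ratio does not change when a sample is multiplied by a scaling factor, and it is a description, since the genes were grouped with their values known.

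**Figure D3:**
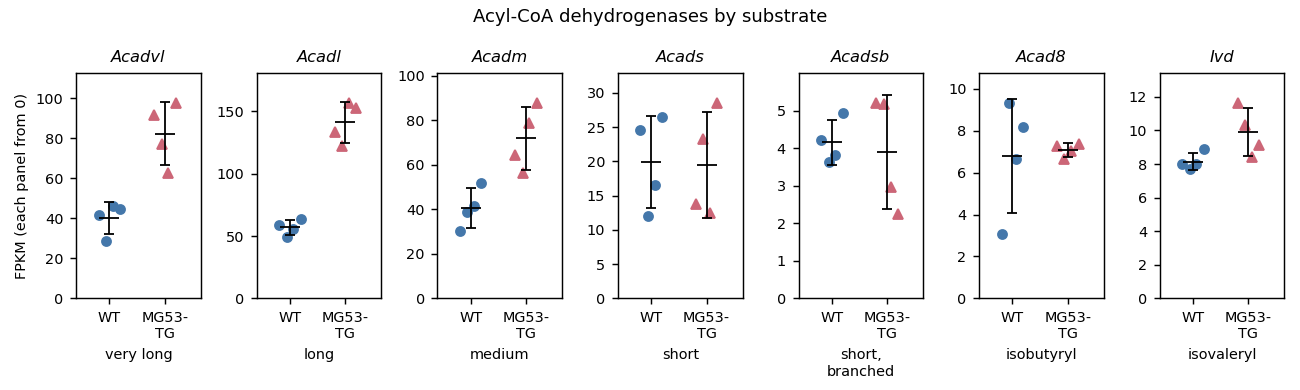
FPKM of 7 acyl-CoA dehydrogenases in each WT (circles) and MG53-TG (triangles) sample, ordered by substrate, with mean and SD (n = 4 each) and each vertical axis from 0. The groups are separate for Acadvl, Acadl and Acadm and overlap for Acads, Acadsb, Acad8 and Ivd.

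The remaining members of the family have less common substrates. Acad11, an acyl-CoA dehydrogenase known for long chains and hydroxylated acids (chr9:104063377-104127725), showed the largest change of all members. It was at 5.72, 5.12, 4.77 and 4.22 FPKM in WT and at 21.7, 24.9, 31.5 and 33.8 FPKM in MG53-TG. The mean levels differed 5.64-fold, with a log2 fold change of 2.27 (SE 0.16, adjusted p = 1.55e-05). Most of it came from 1 start event, which carried between 78.0% and 100% of the level in WT and between 78.3% and 99.0% in MG53-TG.

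Acad12, a related gene of low level next to Acad10, rose from 1.44 ± 0.63 to 2.95 ± 0.48 FPKM (mean ± SD, n = 4 per group), with a log2 fold change of 0.72 (SE 0.19, adjusted p = 0.0141). Acad10 was at 3.16, 4.08, 3.82 and 3.16 FPKM in WT and at 4.04, 4.07, 6.22 and 7.21 FPKM in MG53-TG. MG53-TG 1 and 2 lay within the WT range, and the log2 fold change of 0.46 (SE 0.18) did not pass the test (adjusted p = 0.0708). It passed without MG53-TG 1 (adjusted p = 0.0406) or without MG53-TG 2 (adjusted p = 0.0397). Acad9, known also as an assembly factor of respiratory complex I, had means of 8.55 and 7.91 FPKM and a log2 fold change of -0.13 (SE 0.17, adjusted p = 0.566), which became 0.04 after median-of-ratios scaling.

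The later steps of the cycle, from hydratase to thiolase, were higher in 6 of 9 genes, with a median log2 fold change of 1.01. Hadh, the 3-hydroxyacyl-CoA dehydrogenase of short and medium chains (chr3:131233419-131272101), was the most abundant member, at 122, 139, 117 and 121 FPKM in WT and at 361, 341, 353 and 484 FPKM in MG53-TG. MG53-TG 1, 2 and 3 were close together and MG53-TG 4 stood above them, and the log2 fold change was 1.60 (SE 0.12, adjusted p = 2.43e-05). Acaa2, the mitochondrial 3-ketoacyl-CoA thiolase that ends the cycle, rose from 71.7 ± 2.32 to 204.1 ± 31.9 FPKM (mean ± SD, n = 4 per group), with a log2 fold change of 1.48 (SE 0.11, adjusted p = 2.56e-05).

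Eci2, an enoyl-CoA isomerase that prepares unsaturated chains for the cycle, was at 10.7, 29.5, 22.7 and 33.7 FPKM in WT and at 77.6, 73.2, 52.8 and 87.6 FPKM in MG53-TG. WT 1 was the lowest of its group and MG53-TG 3 the lowest of the other, with no overlap, and the log2 fold change of 1.64 (SE 0.32, adjusted p = 0.0039) was the largest of the step. From its end events alone the log2 fold change was 1.24 with an adjusted p of 0.235. Decr1, the dienoyl-CoA reductase of polyunsaturated chains, rose from 12.4 ± 0.93 to 20.3 ± 3.93 FPKM (mean ± SD, n = 4 per group), with a log2 fold change of 0.65 (SE 0.14, adjusted p = 0.0062). Eci1, the other enoyl-CoA isomerase among the members, was at 22.0, 15.7, 30.5 and 25.7 FPKM in WT and at 22.7, 34.8, 47.7 and 51.9 FPKM in MG53-TG. MG53-TG 1 lay inside the WT range, and the log2 fold change of 0.69 (SE 0.28) did not pass the test (adjusted p = 0.0723). It passed without that sample (adjusted p = 0.0144), with the replicate block (adjusted p = 0.0329) and from MG53-TG 3 and 4 alone against WT (adjusted p = 0.00867).

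Both subunits of the trifunctional protein, whose promoter windows overlap in the stretch shown above, were higher. Hadha, which holds the long-chain hydratase and hydroxyacyl dehydrogenase, was at 51.3, 48.7, 38.0 and 34.8 FPKM in WT and at 83.4, 61.6, 113 and 99.5 FPKM in MG53-TG. The groups did not overlap, and the log2 fold change was 1.01 (SE 0.20, adjusted p = 0.00409). Hadhb, which holds the long-chain thiolase, was at 16.6, 17.5, 22.5 and 18.2 FPKM in WT and at 27.7, 35.2, 29.0 and 96.3 FPKM in MG53-TG.

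MG53-TG 4 stood far above the other samples for Hadhb, and the log2 fold change was 1.09 (SE 0.36, adjusted p = 0.0347). Without MG53-TG 4 it was 0.68 and remained past the threshold (adjusted p = 0.00631). The call was lost when any 1 of the 4 WT samples was left out, with adjusted p between 0.0513 and 0.0789, and when genes of low level were kept in the fit (adjusted p = 0.0514). Read from its single end event, Hadhb was at 53.7 FPKM in MG53-TG 4, with a log2 fold change of 0.88 (adjusted p = 0.00928). The ratio of Hadha to Hadhb ran from 1.69 to 3.09 in WT and from 1.03 to 3.90 in MG53-TG and the ranges overlapped.

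**Figure D4:**
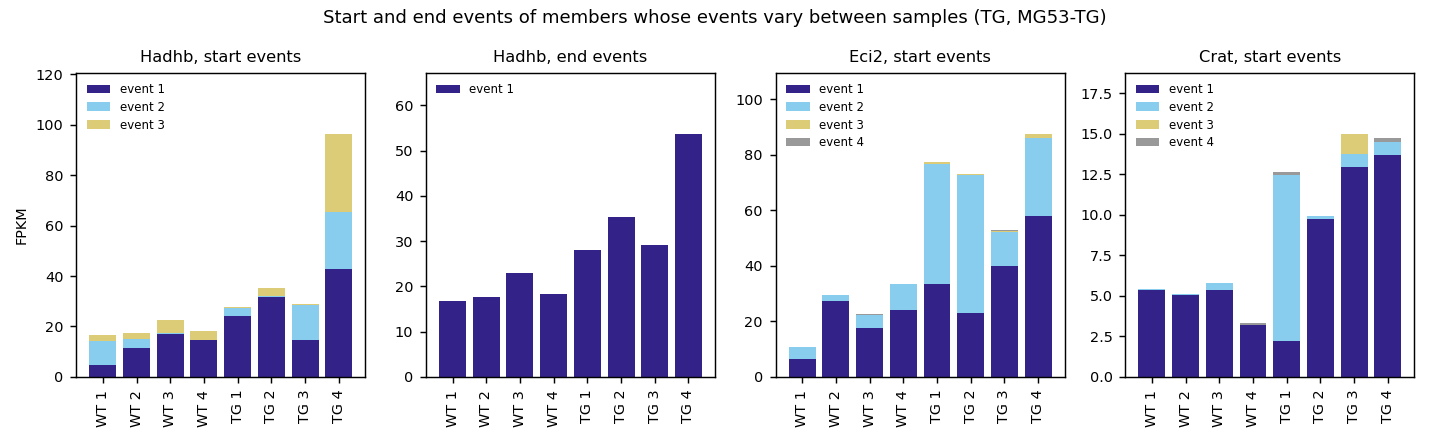
FPKM of each start event, and of the end event of Hadhb, stacked by sample for Hadhb, Eci2 and Crat, with events numbered by mean level and each vertical axis from 0. The bar of MG53-TG 4 for Hadhb reaches 96.3 FPKM from start events and 53.7 FPKM from the end event, and MG53-TG 1 uses another start event for Crat than the other samples.

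The hydratase of short chains and the dehydrogenase of branched chains did not pass the test. Echs1, the short-chain enoyl-CoA hydratase, had means of 44.8 and 47.6 FPKM and a log2 fold change of 0.07 (SE 0.13, adjusted p = 0.693). Hsd17b10, which acts on short and branched hydroxyacyl-CoAs, had means of 76.1 and 73.6 FPKM and a log2 fold change of -0.05 (SE 0.08, adjusted p = 0.656), which became 0.14 after median-of-ratios scaling. The level of Hadh was 2.43 to 3.15 times that of Echs1 in WT and 6.33 to 9.05 times in MG53-TG. Acaa2 was at 0.903 to 0.979 times the level of Hsd17b10 in WT and at 2.21 to 3.57 times in MG53-TG. Both pairs were chosen with their values known, so these ratios are descriptions that follow from the rise of Hadh and Acaa2.

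In the electron transfer chain of the dehydrogenases, 1 of 2 tested genes was higher. Etfdh, the membrane enzyme that passes electrons to ubiquinone, was at 18.13, 17.96, 17.05 and 18.17 FPKM in WT and at 34.4, 34.2, 39.7 and 35.7 FPKM in MG53-TG. Both groups were narrow and far apart, with a log2 fold change of 0.97 (SE 0.09, adjusted p = 5.36e-05). Etfa, the alpha subunit of the electron transfer flavoprotein, was at 132, 102, 116 and 118 FPKM in WT and at 157, 67.6, 165 and 194 FPKM in MG53-TG.

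MG53-TG 2 had the lowest Etfa level of all 8 samples while the other 3 MG53-TG samples were above every WT sample. The log2 fold change was 0.22 (SE 0.29, adjusted p = 0.564), and 0.55 without MG53-TG 2 (adjusted p = 0.00635). Etfb, the beta subunit, had no entry under its own identifier, but 3 end events on its exons (chr7:43444083-43457800) were listed under the neighbouring gene Vsig10l. Their sum was 63.9, 40.1, 53.4 and 60.5 FPKM in WT and 94.1, 105, 110 and 78.6 FPKM in MG53-TG. The groups did not overlap, and in a fit that assigned events by coordinates alone the log2 fold change was 0.83 (SE 0.16, adjusted p = 0.00403). This fit was added after the entries had been seen, and Etfb is not among the 19.

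In the propionate route 1 of 4 genes was higher, too few to set apart from the 15.5% of all genes, and the median log2 fold change was 0.20. Mcee, the methylmalonyl-CoA epimerase, was at 21.2, 18.9, 21.8 and 20.2 FPKM in WT and at 28.2, 25.9, 27.3 and 26.6 FPKM in MG53-TG. Values were tight in both groups, and the log2 fold change of 0.38 (SE 0.09, adjusted p = 0.00755) was the smallest among the members called. Pccb, the beta subunit of propionyl-CoA carboxylase, was at 23.0, 20.2, 14.6 and 22.5 FPKM in WT and at 19.6, 27.5, 29.9 and 26.9 FPKM in MG53-TG.

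MG53-TG 1 was inside the WT range for Pccb, whose log2 fold change of 0.36 (SE 0.18, adjusted p = 0.125) passed the test without that sample (adjusted p = 0.0421). Pcca, the alpha subunit, was at 11.7, 11.8, 11.8 and 10.5 FPKM in WT and at 11.7, 13.5, 9.12 and 7.86 FPKM in MG53-TG. The MG53-TG samples lay on both sides of the WT samples, with a log2 fold change of -0.14 (SE 0.16, adjusted p = 0.512) that became 0.04 under both rescalings. Mut, the cobalamin-dependent methylmalonyl-CoA mutase, had means of 11.2 and 11.5 FPKM and a log2 fold change of 0.03 (SE 0.10, adjusted p = 0.815).

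Both thioesterases, which release free fatty acid and CoA from acyl-CoA, were higher. Acot2, a mitochondrial matrix enzyme for long chains, was at 7.23, 8.16, 6.86 and 6.96 FPKM in WT and at 21.5, 20.4, 18.5 and 18.1 FPKM in MG53-TG. The groups were far apart, with a log2 fold change of 1.31 (SE 0.10, adjusted p = 2.91e-05). Acot2 has a near-identical neighbour in the mouse genome, Acot1, which had no value here, so reads of both may have been counted for Acot2. Acot13, a small thioesterase associated with mitochondria, was at 53.4, 54.6, 60.5 and 51.5 FPKM in WT and at 70.0, 67.3, 75.4 and 81.5 FPKM in MG53-TG. It did not overlap either, with a smaller log2 fold change of 0.41 (SE 0.09, adjusted p = 0.0075).

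Genes that surround the pathway were counted from lists written by function, beside 15.5% of all genes higher and 29.2% lower. Of 10 genes of peroxisomal beta-oxidation, which shortens very long chains before they reach mitochondria, 9 were higher and 0 lower, with a median log2 fold change of 1.07. The largest was that of the thiolase Acaa1b (3.55). Of 5 genes for the supply of carnitine and malonyl-CoA, 2 were called higher, Bbox1 (1.09) and the carnitine transporter Slc22a5 (0.95), and 0 lower, or 1 lower without MG53-TG 1. Bbox1, the gamma-butyrobetaine dioxygenase, lay between 0 and 0.467 FPKM in WT and between 1.14 and 1.96 FPKM in MG53-TG and passed the filter on low values only through MG53-TG. With a filter of 2 FPKM, 1 of 4 genes of this list was higher. Of 8 acyl-CoA synthetases 4 were called higher, with the largest values for Acsl5 (1.34) and Acsm5 (0.98), and 4 lower, with the largest decreases for Acsl4 (-2.04) and Acsm3 (-1.28). Acsm5 (0.0672 FPKM in WT, 1.12 FPKM in MG53-TG) and Acsm3 (1.44 FPKM in WT, no entry in MG53-TG) each passed the filter only through the group where they were high. The 4 higher calls fell to 2 when any 1 WT sample was left out and to 1 of 7 without MG53-TG 3. From end events alone, 1 of 4 tested synthetases was higher and 3 were lower. Of 6 other thioesterases 4 were higher, led by Acot11 (1.72), and 2 lower, led by Acot9 (-0.72).

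Of 11 genes of flavin supply and of partners of the dehydrogenases, 4 were higher, led by the riboflavin transporter Slc52a2 (1.22), and 1 was lower, the mitochondrial carrier Slc25a32 (-0.52); without MG53-TG 3, 2 were higher, and from end events alone 1 of 9. Of 14 genes of branched-chain amino acid degradation 5 were higher, led by Aldh6a1 (0.86) and Auh (0.84), or 3 of 13 from start events alone. The 1 lower gene was the transaminase Bcat2 (-0.76). Its call was lost under both rescalings, with the replicate block and without WT 1, 2 or 3. Of 10 genes for cobalamin, biotin and succinyl-CoA 2 were higher, led by Btd (0.98), and 3 lower, led by Mmab (-0.94), or 1 lower without WT 4. The counts of this cobalamin list are close to the shares of all genes, 15.5% higher and 29.2% lower. Of 18 general mitochondrial genes outside these pathways 1 was higher and 8 were lower, with a median log2 fold change of -0.29. Among the 18 were genes of import, chaperones and fusion and that of citrate synthase. The higher gene was Mfn2 (0.32), not called with the replicate block or without WT 1, 2 or 4 or MG53-TG 3 or 4. The lower genes were led by Tomm40 (-0.83). After median-of-ratios scaling that list had 1 higher and 2 lower and a median of -0.10, while the members had 21 higher and a median of 0.84.

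**Figure D5:**
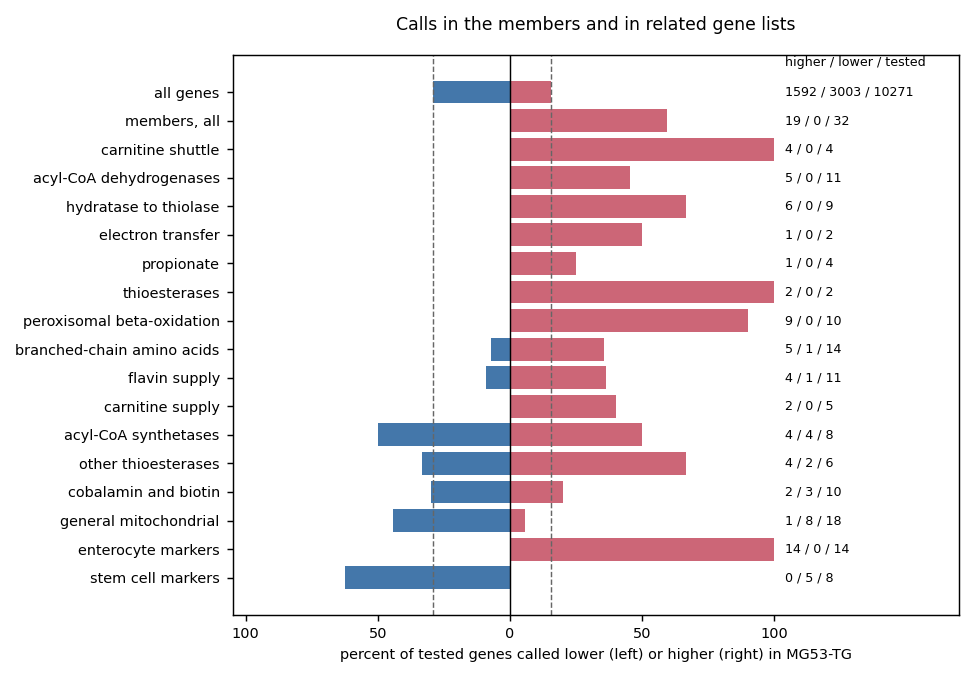
Percent of tested genes called lower (left, blue) or higher (right, red) in MG53-TG by limma at an adjusted p of at most 0.05, for the members, their steps and related lists, with the counts at the right and dashed lines at the shares of all genes (15.5% and 29.2%). The members show 19 higher and 0 lower of 32 and the general mitochondrial genes 1 higher and 8 lower of 18.

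Markers of the other cell types were counted in the same way, beside 15.5% of all genes higher and 29.2% lower. Goblet markers were lower in 4 of 6, led by Agr2 (-2.66). The goblet marker Zg16 went the other way, with means of 9.18 FPKM in WT and 33.7 FPKM in MG53-TG. Its log2 fold change of 1.33 was not called (adjusted p = 0.117 by limma), but was with the replicate block or without MG53-TG 1. Paneth markers were lower in 5 of 5, led by Defa24 (-3.71), of which Pla2g2a passed the filter only through WT. Enteroendocrine markers were higher in 3 of 7, led by Chgb (1.39), the immune marker Cd68 was the 1 tested of its list and was lower (-1.84), and tuft markers summed to at most 1.73 FPKM, with none tested. Of the 3 mesenchyme and muscle markers tested, Col3a1 (1.16) and Col1a2 (1.12) were called higher, but both were at 0 in the 4 WT samples and averaged 1.26 and 1.24 FPKM over 3 MG53-TG samples, since MG53-TG 1 had no entry and was treated as missing. With absent values as 0, or without MG53-TG 2, 3 or 4, 0 markers of this list were higher. The part of these lists in the results for the members was not tested.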

How the data were processed

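RNA of 4 WT and 4 MG53-TG organoid samples was sequenced by the authors on an Illumina platform. Per the labels, their processing notes name cutadapt 1.9.1, HISAT2 2.0.1, HTSeq 0.6.1, DESeq2 and build mm10; the tool that made the event tables is not given in the sources used here. The authors deposited FPKM per transcript event (start, end, skipped exon, retained intron and others, 20 types). The smallest FPKM was 1e-06, whole reads could not be recovered, and the depth is unknown, so no counting intervals were computed.

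A start or end event was used where its identifier and an exon boundary of GENCODE M21 (GRCm38) named the same gene (85.3% of events). Gene values are sums over start events, or over end events where higher. A sample without an entry was missing if the median of the other samples of its group was at least 0.5 FPKM, and otherwise 0. limma 3.58.1 in R 4.3.3 (lmFit, eBayes with trend) was fitted to log2(FPKM + 1) over 10271 genes whose mean reached 0.5 FPKM, p-values were adjusted by the Benjamini-Hochberg method, and genes were called at 0.05. On simulated data with 200 of 9965 genes changed, it recovered 1% at a log2 size of 0.5, 63.5% at 1 and 97% at 2. In the real data 44.7% of all genes were called, so these shares do not give the recovery of the fit used here. The design assumed 1 value per gene, and the files held events.

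All 34 members are named. Every sample is given for the 2 called members of each step with the largest changes, for those whose call turned on 1 sample, for those with 1 sample far from the other 3 and for those without a tested value, and also for Hadha, whose values were added beside Hadhb. Up to 2 genes in each direction are named per related list. Members and lists were chosen with earlier results of these data known, and the study itself shows fatty acid oxidation genes for these samples, so their direction is not independent evidence. Alternatives are given in the closing section.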

Additional observations from a re-analysis of the deposited data

Results flagged for a closer look

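In 5 of 67 groups of 4 samples examined, 1 sample lay farther from the other 3 than Dixon's 95% critical value allows, and chance alone would give about 3.35, at 1 in 20. Hadhb was at 96.3 FPKM in MG53-TG 4, beside 27.7 to 35.2 FPKM in the other 3. Hadh was at 484 FPKM in the same sample, beside 341 to 361 FPKM. Cpt1a was at 30.8 FPKM in MG53-TG 2, beside 28.2 to 28.6 FPKM. Pcca was at 10.5 FPKM in WT 4, beside 11.7 to 11.8 FPKM. Cpt1b, from an event listed under Chkb, was at 0.148 FPKM in WT 1 and absent elsewhere.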

How the results depend on the processing

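The count of members called higher was 19 and stayed between 18 and 22, of 31 tested with start events and 32 otherwise, except with end events alone (14 of 25 tested), with events placed by coordinates alone (20 of 33 tested, Etfb added), an alternative chosen after seeing the data, and with 2 of the 4 MG53-TG samples; 0 were lower in each, except for 2 with MG53-TG 3 and 4 alone. Leaving out 1 sample gave 18 to 22, and the median log2 fold change then ran from 0.54 to 0.73. For all genes it gave 1332 to 1543 higher and 2318 to 3322 lower. The all-gene median moved up by 0.16 with median-of-ratios scaling and by 0.12 with quantile normalization. The member median became 0.84 and 0.77, and higher calls made up 50.2% and 44.8% of all calls instead of 34.6%. Small log2 fold changes then turned positive, none past the threshold: with median of ratios Acads 0.135, Acadsb 0.0267, Acad9 0.0450, Hsd17b10 0.14 and Pcca 0.0394, and with quantiles Acads 0.0801, Acadsb 0.0440, Acad9 0.0457 and Pcca 0.0436. Leaving out 1 sample also crossed 0 for Acads (-0.25 to 0.13), Acadsb (-0.25 to 0.0592), Acad8 (-0.15 to 0.30), Acad9 (-0.24 to 0.0274), Echs1 (-0.00958 to 0.15) and Mut (-0.0045 to 0.0640). Hadhb was not called without the expression filter (adjusted p = 0.0514), nor Crat from its highest single event (0.75, adjusted p = 0.266). Ivd under both rescalings and Pccb with median of ratios were gained. With MG53-TG 1 and 2 alone against WT, also chosen after seeing the data, 17 members were higher and 0 lower with a median of 0.41, Ivd was gained, and 6 small values crossed 0: Acadsb 0.27, Acad9 0.0898, Echs1 -0.15, Hsd17b10 0.0464, Etfa -0.17 and Pcca 0.12. With MG53-TG 3 and 4 alone 23 were higher and 2 lower with a median of 0.74, and Mut became -0.0602. The all-gene median was -0.10 with MG53-TG 1 and 2 alone and -0.26 with MG53-TG 3 and 4 alone. Higher calls made up 37.5% and 29.9% of all calls. The causes were not tested. The depth is unknown, so its limit on low genes could not be given.

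The labels give both groups replicate numbers 1 to 4, but deviations of same-numbered samples correlated at only 0.09, -0.0031, 0.09 and -0.05, so the numbers were not treated as pairs. With the replicate block 20 members were higher (Eci1 gained, adjusted p = 0.0329) and the median stayed at 0.67.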

Other observations

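Some members varied in the events that carried their level, and these values are given without a test. A second start event of Crat carried 81.2% of its level in MG53-TG 1 and between 0.696% and 7.37% in the other samples. An early end event of Acadm, beside a retained intron of 244 bases, carried 43.9% of its level in WT 4, and the retained intron was at 0 in the other 7 samples. In Acad9, transcripts that kept an intron of 788 bases made up 17.6% to 24.6% in WT and 43.0%, 69.3%, 13.8% and 81.4% in MG53-TG, so that 3 of 4 MG53-TG samples lay above the WT range and 1 below it. An early end event of Hadha carried between 12.0% and 40.0% in WT and between 5.44% and 40.1% in MG53-TG, with no separation of the groups. The nearer of the end events of Eci2 carried between 6.59% and 96.9% in WT and between 18.6% and 98.9% in MG53-TG.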
